A study of Mus musculus with 8 samples.

Results

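Proteases that cut the extracellular matrix, plasminogen activators and their inhibitors were examined in RNA-Seq of mouse pancreas, through 9 genes taken by name from the 48709 genes listed in each library. The 9 genes were *Mmp3*, *Mmp7*, *Mmp9*, *Mmp10* and *Mmp14* among the matrix metalloproteinases, *Timp1* among the inhibitors, *Plau* and *Plaur* of the plasminogen system, and *Adam8*. The libraries came from male mice of 8 weeks, 24 hours after injection, with 2 libraries in each of 4 groups called WT saline, cKO saline, WT FAEE-SAP and cKO FAEE-SAP. FAEE-SAP is a severe acute pancreatitis brought on by injecting palmitoleic acid (POA) together with ethanol, which form fatty acid ethyl esters in the pancreas. The cKO mice carry floxed *Pfkfb3*, a gene for an enzyme that sets the rate of glycolysis, and a Cre driven by the *Pdx1* promoter. That promoter is active in the forerunners of acinar, duct and islet cells, so leukocytes and stroma of a cKO pancreas keep an intact gene. The methods describe the WT mice as purchased animals, and none of the 4 groups carries the floxed alleles or the Cre alone. All mice were fasted before induction. The FAEE-SAP mice also received buprenorphine, and whether the saline mice did is not given in the sources used here.

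Matrix metalloproteinases (MMPs) are zinc enzymes that are made as inactive precursors and cleave collagens, laminins and other proteins around cells, and tissue inhibitors (TIMPs) bind and block the active enzymes. Urokinase, the product of *Plau*, is held on the cell surface by its receptor *Plaur* and turns plasminogen into plasmin, which dissolves fibrin and also activates several MMP precursors. In pancreatitis these enzymes come from several sources. Neutrophils store MMP9 and MMP8 in granules, injured epithelium makes MMP7, and fibroblasts and stellate cells make MMP14 and TIMP1. Transcript levels do not show enzyme activity, since each of these enzymes is controlled after translation.

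The values are RPKM, reads divided by exon length in kilobases and by the library total, as deposited by the authors. RPKM is a share of the library, and transcripts of digestive enzymes fill most of a pancreas library. Each library was therefore divided by a factor, the median of its ratios to the mean library. The factor was 0.621 to 0.866 in saline, 1.94 to 2.02 in WT FAEE-SAP and 0.975 to 1.05 in cKO FAEE-SAP. After this division, the summed level of 10 acinar marker genes was 222261 to 307766 in the 4 saline libraries. It was 74070 to 76829 in WT FAEE-SAP and 181959 to 202785 in cKO FAEE-SAP. These sums contain the factors, so they are no reason for the scaling. All levels given here are scaled RPKM unless stated. Depth worked out from the smallest values was 22.8 to 37.6 M reads per library, so 1 read on 2 kb of exons equals a deposited RPKM of 0.0133 to 0.0219. With saline, *Pfkfb3* itself was at 1.70 and 1.69 in WT and at 0.880 and 2.10 in cKO. With FAEE-SAP it was at 1.85 and 3.21 in WT, against 1.74 and 2.82 in cKO. These levels overlapped between genotypes under both treatments, and a value per gene does not show the loss of only some exons. They do not test the genotype labels, and genotype refers to the labels throughout.

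Of the 9 genes, 3 are neighbors. On GRCm38, chromosome 9 holds 10 MMP genes of the files between positions 7272514 and 7699585, and *Mmp3* (7445822 to 7455975), *Mmp10* (7502352 to 7510240) and *Mmp7* (7692090 to 7699585) are among them, all on the plus strand. *Mmp3* and *Mmp10* encode stromelysins with wide substrate ranges, and their longest transcripts were identical at 78.5% of 1672 aligned bases. They shared 5 stretches of 100 bases, 0.294% of those in *Mmp3*, so few reads could be assigned to the wrong one of the pair. *Mmp7* encodes matrilysin, the smallest of the family. The other genes of this cluster were at or near 0 in all libraries except *Mmp8*.

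The bases before the start sites of these 3 genes and of *Plaur* are shown. They are the members searched whose promoters hold the letters TGANTCA, the sequence bound by AP-1, a transcription factor of stress and injury responses. The bases were taken from a set of RefSeq promoters on GRCm38.p6 that held 7 of the 9 genes. *Mmp9* and *Plau* were not in that set and were not searched. Each line gives the 150 bases just before the start site, on the plus strand, with TGANTCA and the TATA box letters TATAAA in capitals.

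*Mmp3*, chr9:7445672-7445821: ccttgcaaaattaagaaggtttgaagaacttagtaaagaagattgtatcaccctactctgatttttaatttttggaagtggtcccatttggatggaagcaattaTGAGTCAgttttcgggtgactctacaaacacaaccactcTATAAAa
*Mmp10*, chr9:7502192-7502341: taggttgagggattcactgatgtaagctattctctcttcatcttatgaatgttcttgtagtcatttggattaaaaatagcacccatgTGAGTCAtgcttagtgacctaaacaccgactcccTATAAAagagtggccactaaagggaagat
*Mmp7*, chr9:7691940-7692089: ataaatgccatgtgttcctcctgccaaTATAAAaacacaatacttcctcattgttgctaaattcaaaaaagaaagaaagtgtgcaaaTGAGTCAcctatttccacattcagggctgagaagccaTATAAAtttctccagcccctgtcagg
*Plaur*, chr7:24462333-24462482: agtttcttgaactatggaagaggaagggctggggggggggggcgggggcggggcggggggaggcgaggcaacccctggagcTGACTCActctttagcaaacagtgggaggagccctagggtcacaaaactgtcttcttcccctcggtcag

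TGANTCA began 46 bases before the start in *Mmp3*, 63 before it in *Mmp10*, 63 before it in *Mmp7* and 69 before it in *Plaur*. Over windows of 250 bases before to 50 bases after the start, searched on both strands, 4 of the 7 genes held TGANTCA, against 7.81% of 32851 promoters. TATAAA was present in *Mmp3*, *Mmp10* and *Mmp7* and in 13.6% of all promoters. The 2 motifs do not overlap each other in any of these windows. RefSeq lists another *Mmp7* start downstream, whose window holds neither motif. The motifs were chosen with the sequences and values in view, so these shares describe the windows and test nothing. *Mmp10*, with the same letters as *Mmp3* and *Mmp7*, had 3 reads in all 8 libraries together.

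**Figure D1:**
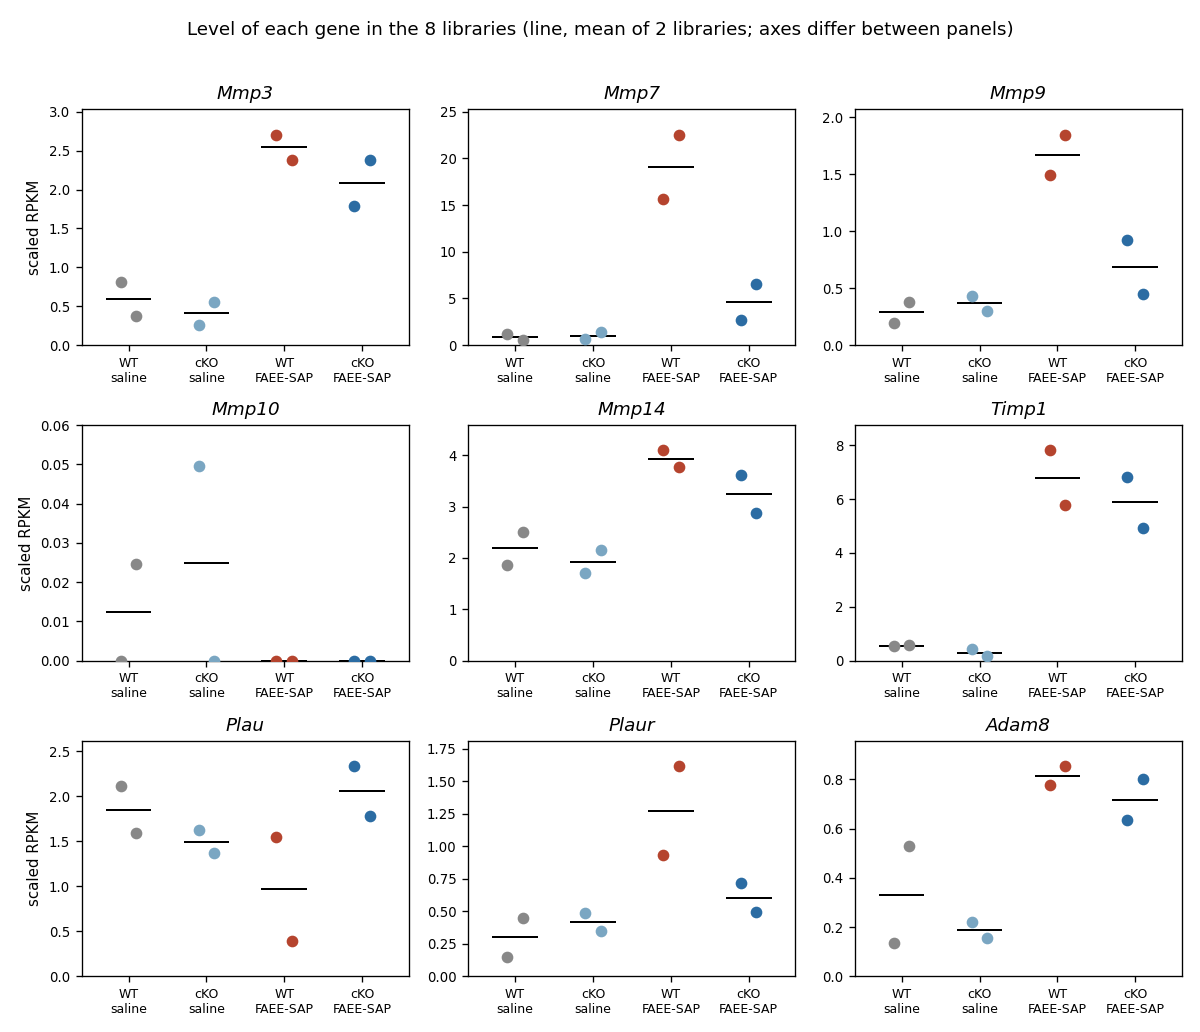
Scaled RPKM of the 9 genes in the 8 libraries, by group, with 1 point per library and a line at the mean of 2 libraries. Except for *Plau* and *Mmp10*, each gene stood above both saline groups in all 4 FAEE-SAP libraries, by little for *Mmp9* and *Plaur* in cKO. *Mmp3*, *Mmp7*, *Mmp9*, *Mmp14* and *Plaur* were highest in WT FAEE-SAP without overlap, by very little for *Mmp3*, and *Mmp10* was at or near 0 throughout.

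The first comparison asks which of these genes respond to FAEE-SAP in WT pancreas. *Mmp7*, *Timp1*, *Mmp9* and *Mmp3* rose, by 20.4-fold, 10.6-fold, 4.89-fold and 4.11-fold. *Plaur*, *Adam8* and *Mmp14* were higher in both FAEE-SAP libraries than in both saline libraries without passing the test, *Plau* was lower in both, and *Mmp10* was too low to test. Among 10894 genes tested in this comparison, 3.08% passed in the upward direction, which takes a change of at least 2-fold and a limma p-value that stays under 0.05 once adjusted by Benjamini-Hochberg across every gene tested. A gene was tested where its deposited RPKM reached 0.5 in at least 2 of the 4 libraries. Of the 8 members tested, 5 reached that level only with the help of the FAEE-SAP libraries, so the count of 4 describes these genes and is no support for a response of the group. In whole tissue, a transcript that differs can reflect a different number of the cells that make it or a different amount per cell, and these cannot be told apart.

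*Mmp7*, the matrilysin that cleaves cell surface proteins as well as matrix, was the highest of the 9 genes in WT FAEE-SAP per kilobase. It was at 1.18 and 0.593 in the WT saline libraries and at 15.6 and 22.5 in WT FAEE-SAP, from 26, 15, 771 and 1519 reads. The lowest FAEE-SAP library stood far above the highest saline library. The log2 fold change was 4.35 (SE 0.36, adjusted p = 0.00417, limma). An antisense transcript, *AV064505*, shares 123 bases of *Mmp7* exons and was at 0 in every library.

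*Timp1* encodes a secreted inhibitor of most MMPs and lies on chromosome X (20870166 to 20874735) within *Syn1*, a nerve cell gene on the opposite strand that shares no exon bases with it and was near 0. It was at 0.545 and 0.571 in WT saline and at 7.81 and 5.78 in WT FAEE-SAP. The saline libraries held 10 and 12 reads of *Timp1* and the FAEE-SAP libraries 321 and 323. The log2 fold change was 3.41 (SE 0.24, adjusted p = 0.00292, limma), with the smallest adjusted p-value of the 9 genes.

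*Mmp9* (chromosome 2, 164940780 to 164955850) encodes gelatinase B, which cleaves denatured collagen and basement membrane and is stored in neutrophil granules. Its level was 0.191 and 0.382 in WT saline and 1.49 and 1.85 in WT FAEE-SAP, a log2 change of 2.29 (SE 0.33, adjusted p = 0.0195, limma). *Mmp3*, the stromelysin that also activates other MMP precursors, was at 0.808 and 0.376 in WT saline and at 2.71 and 2.39 in WT FAEE-SAP, a log2 change of 2.04 (SE 0.36, adjusted p = 0.0326, limma). Neither gene overlapped between the treatments, although both were low in saline, at 14 to 32 reads.

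The remaining members moved less or varied more. *Mmp14* (chromosome 14, 54431612 to 54445364) encodes a membrane-bound MMP that cuts collagen at the cell surface and activates the precursor of MMP2. It had the highest mean of the 9 genes in WT saline, with 1.87 and 2.51, and was at 4.10 and 3.77 in WT FAEE-SAP. Its log2 change of 0.83 (SE 0.23, adjusted p = 0.0813, limma) missed both thresholds. *Plaur* (chromosome 7, 24462484 to 24475968), the urokinase receptor, was at 0.148 and 0.452 in WT saline and at 0.930 and 1.62 in WT FAEE-SAP, a log2 change of 1.91 (SE 0.48, adjusted p = 0.0695, limma). *Adam8* (chromosome 7, 139978932 to 139992562) encodes a membrane-bound protease of leukocytes that releases adhesion molecules and receptors from cells. It was at 0.136 and 0.528 in WT saline and at 0.776 and 0.854 in WT FAEE-SAP, a log2 change of 1.30 (SE 0.50, adjusted p = 0.164, limma). The pair of WT saline libraries differed more from each other in *Plaur* and *Adam8* than the pair of FAEE-SAP libraries did on the log scale, with replicate 1 the lower in both genes.

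*Plau* (chromosome 14, 20836660 to 20843385), the urokinase gene, was the member at a lower level with FAEE-SAP. It was at 2.11 and 1.59 in WT saline and at 1.54 and 0.391 in WT FAEE-SAP, so the difference lies mostly in replicate 2 of FAEE-SAP. Its log2 fold change was -1.13 (SE 0.58, adjusted p = 0.269, limma). With the RPKM as deposited the difference had the opposite sign, at 0.10, since the scaling factors of the WT FAEE-SAP libraries are the largest of the 8.

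*Mmp10* had 0 and 1 reads in WT saline and none in either WT FAEE-SAP library. A count of 0 allows up to 3 reads, which equals 0.0377 and 0.0276 scaled RPKM in the WT FAEE-SAP libraries, for counting error only. At this depth *Mmp10* was not detectable with FAEE-SAP, while its neighbor *Mmp3* had 225 and 271 reads.

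Of the members, 7 were higher in both WT FAEE-SAP libraries than in both saline libraries, and 1, *Plau*, was lower in both. Over all genes tested, 29.7% were higher without overlap and 29.1% were lower. The median log2 fold change was 1.97 over the 8 members tested and 0.02 over all genes tested. The calls rested on few libraries. Leaving out a library leaves its group with 1, which the fit takes to vary like the pair in the other group. Without WT saline replicate 1, *Mmp9* did not pass, at a log2 fold change of 1.94 (adjusted p = 0.0563, limma), and without WT saline replicate 2, *Mmp3* did not, at 1.55 (adjusted p = 0.0591, limma). *Plaur* and *Adam8* passed without WT saline replicate 2, at log2 fold changes of 2.55 and 2.08, and *Plaur* also passed in 1 model over all 8 libraries, at 1.85 (adjusted p = 0.0416, limma). Without WT saline replicate 1 they were at 1.32 and 0.56, with adjusted p-values of 0.179 and 0.412 (limma). Without either WT FAEE-SAP library *Mmp7* passed, at 4.63 and 4.11, *Mmp3* did not, at 1.96 and 2.14, and *Timp1* and *Mmp9* no longer reached the minimum RPKM and were not tested.

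In cKO pancreas the same comparison gave no call among the 6 members tested, and 0.0531% of 9423 genes tested passed in the upward direction. *Timp1*, *Mmp3*, *Mmp7*, *Adam8*, *Mmp14* and *Plau* were all higher in both cKO FAEE-SAP libraries than in both cKO saline libraries, as were 19.6% of all genes tested. Of the 6, 5 had an unadjusted p-value under 0.05, against 9.42% of all genes tested. Only with the FAEE-SAP libraries did 4 of the 6 reach the minimum RPKM. The median log2 fold change was 1.75 over the 6 members and -0.01 over all genes tested.

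*Timp1* was at 0.432 and 0.162 in cKO saline and at 6.82 and 4.93 in cKO FAEE-SAP, which leaves a wide gap between the groups. The log2 fold change was 3.92 (SE 0.39, adjusted p = 0.148, limma), from 9 and 3 reads in saline and 174 and 131 with FAEE-SAP. In 1 model over all 8 libraries, which shares the spread of all groups, it was 3.98 with an adjusted p of 0.00952 (limma) and passed.

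Among the MMPs, *Mmp3* was at 0.261 and 0.559 in cKO saline and at 1.79 and 2.38 in cKO FAEE-SAP, a log2 change of 2.12 (SE 0.34, adjusted p = 0.255, limma). *Mmp7* was at 0.599 and 1.43 in cKO saline and at 2.66 and 6.49 in cKO FAEE-SAP. The cKO FAEE-SAP libraries differed from each other by more in *Mmp7* than in *Mmp3*, and the log2 fold change of *Mmp7* was 2.04 (SE 0.55, adjusted p = 0.439, limma). *Mmp14* was at 1.70 and 2.16 in cKO saline and at 3.61 and 2.87 in cKO FAEE-SAP, a log2 change of 0.74 (SE 0.23, adjusted p = 0.452, limma). *Mmp9* was at 0.434 and 0.298 in cKO saline and at 0.920 and 0.450 in cKO FAEE-SAP. It did not reach the minimum in 2 of the 4 libraries and was not tested. *Mmp10* had 2 and 0 reads in cKO saline and none in cKO FAEE-SAP.

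*Plau* was at 1.62 and 1.37 in cKO saline and at 2.33 and 1.78 in cKO FAEE-SAP, a log2 change of 0.45 (SE 0.22, adjusted p = 0.575, limma). Its receptor gene *Plaur* was at 0.489 and 0.348 in cKO saline and at 0.714 and 0.494 in cKO FAEE-SAP, nearly touching, and was not tested. *Adam8* was at 0.221 and 0.155 in cKO saline and at 0.635 and 0.801 in cKO FAEE-SAP, a log2 change of 1.45 (SE 0.27, adjusted p = 0.300, limma).

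**Figure D2:**
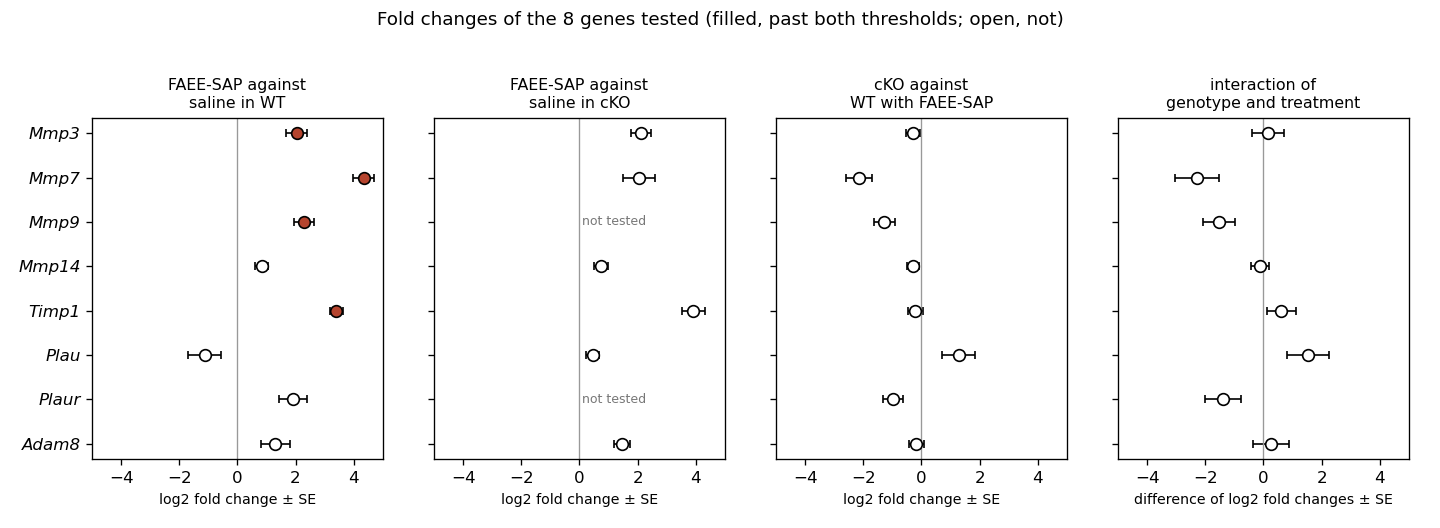
Log2 fold change of each gene on the x axis, with its standard error, in 3 comparisons, and in the rightmost panel the interaction, the difference between the responses of cKO and WT. Filled points passed an adjusted p-value of 0.05 and 2-fold. The calls for *Mmp7*, *Timp1*, *Mmp9* and *Mmp3* are in WT, and in the genotype comparison *Mmp7* lies lowest, at -2.16.

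The study's main question was how the loss of *Pfkfb3* alters the pancreas under FAEE-SAP. In cKO against WT with FAEE-SAP, none of the 8 members tested passed the test. Of 11008 genes tested, 0.409% passed as lower in cKO and 0.863% as higher. *Mmp7*, *Mmp9* and *Plaur* had unadjusted p-values under 0.05, against 19.5% of all genes tested. *Mmp3*, *Mmp7*, *Mmp9*, *Mmp14* and *Plaur*, 5 members, were lower in both cKO libraries than in both WT libraries, and 1, *Plau*, was higher. For *Mmp3* the groups nearly touched, at 2.387 in the lowest WT library and 2.379 in the highest cKO library. Without overlap, 25.3% of all genes tested were lower in cKO and 26.5% were higher.

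*Mmp7* showed the widest gap. Its 15.6 and 22.5 in WT FAEE-SAP stood against 2.66 and 6.49 in cKO FAEE-SAP, 4.48-fold lower in the fit, from 771 and 1519 reads in WT and 82 and 208 in cKO. The log2 fold change was -2.16 (SE 0.45, unadjusted p = 0.00314, adjusted p = 0.0955, limma). Over the alternatives of scaling by trimmed mean or quantiles, filter, pseudocount and variance model, it was between -2.24 and -1.99. The adjusted p-value turned on single libraries. Without cKO FAEE-SAP replicate 2, the higher of its pair, the log2 fold change was -2.82 (adjusted p = 0.031, limma), and without replicate 1 it was -1.51 (adjusted p = 0.0964). Each of these fits has 1 cKO library, so the spread behind its p-value comes from the WT pair alone.

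*Mmp9* was at 1.49 and 1.85 in WT FAEE-SAP and at 0.920 and 0.450 in cKO FAEE-SAP, a log2 change of -1.28 (SE 0.36, adjusted p = 0.158, limma). *Plaur* was at 0.930 and 1.62 against 0.714 and 0.494, a log2 change of -0.97 (SE 0.35, adjusted p = 0.215, limma). Replicate 2 of cKO FAEE-SAP was only just above the highest cKO saline library in both genes. *Plau* was at 2.33 and 1.78 in cKO FAEE-SAP and at 1.54 and 0.391 in WT FAEE-SAP, and its log2 change of 1.28 (SE 0.58, adjusted p = 0.296, limma) again rests on WT replicate 2.

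The other members lay close together in the genotypes. *Timp1* and *Adam8* overlapped, with log2 fold changes of -0.22 (SE 0.26) and -0.18 (SE 0.26). *Mmp3* and *Mmp14* did not overlap, *Mmp3* by very little, with log2 fold changes of -0.30 (SE 0.25) and -0.29 (SE 0.22). The adjusted p-values of these 4 genes were 0.515 to 0.752 (limma), which does not show that their levels are equal.

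The scaling decides how many of these differences pass. With the RPKM as deposited, the median of all genes tested was shifted to -0.91, 39.6% of all genes passed as lower in cKO, and 7 of the 8 members were among them. On that scale *Mmp7* was at -3.11, *Mmp9* at -2.16, *Plaur* at -1.85, *Mmp3* and *Mmp14* at -1.23 each, *Timp1* at -1.17 and *Adam8* at -1.06. Relative to the shifted median, *Mmp7*, *Mmp9* and *Plaur* remained well below it, and the other 4 lay near it. The WT response shows the mirror image. As deposited, the median of all genes tested was 1.24, 65.9% of genes passed as higher with FAEE-SAP, and 7 of the 8 members did. A trimmed mean of log ratios and quantile normalization left the calls among the members in both comparisons as they were with the median of ratios.

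**Figure D3:**
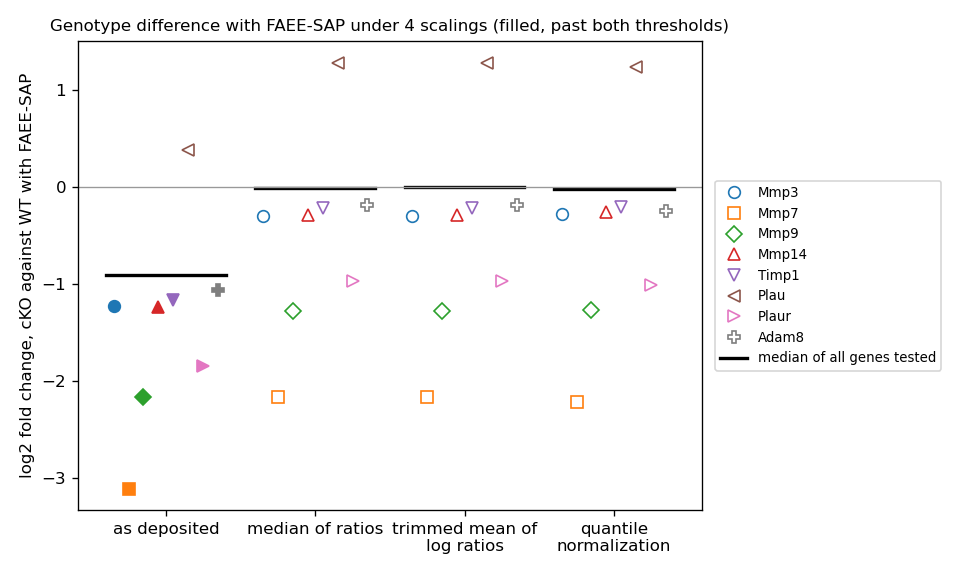
Log2 fold change of 8 genes in cKO against WT with FAEE-SAP under 4 ways of scaling the libraries, with black lines at the median of all genes tested and filled points for calls. As deposited, the whole distribution is shifted to a median of -0.91 and 7 genes pass, and under the other 3 scalings none does, with *Mmp7*, *Mmp9* and *Plaur* the lowest in each.

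With saline, the genotypes could be compared in 3 members. *Mmp7* had a log2 change of 0.11 (SE 0.48), *Plau* of -0.30 (SE 0.20) and *Mmp14* of -0.19 (SE 0.23), and all 3 overlapped between cKO and WT. Their adjusted p-values were 0.999 (limma). Across 8715 genes tested, 0% passed, and 2.15% had an unadjusted p-value under 0.05, none of these 3 genes among them. The other 6 members were under the minimum in this comparison. Among them *Timp1* was at 0.432 and 0.162 in cKO saline, below the 0.545 and 0.571 of WT saline, with 12 reads or fewer in each library.

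The interaction term tests whether the response to FAEE-SAP differs between the genotypes. None of the 8 members tested passed, as 0.0719% of 11133 genes did. *Mmp7* and *Mmp9* had unadjusted p-values under 0.05, against 12.6% of all genes tested. For *Mmp7* the response was lower in cKO by a log2 difference of -2.28 (SE 0.76, adjusted p = 0.315, limma), and for *Mmp9* by -1.53 (SE 0.54, adjusted p = 0.335, limma). *Plaur* was at -1.41 (SE 0.62) and *Plau* at 1.53 (SE 0.72). For *Timp1*, *Adam8*, *Mmp3* and *Mmp14* the difference lay between -0.11 and 0.61, and its standard error was 0.31 to 0.63. A call in WT and none in cKO is thus not shown to be a difference between the genotypes for any of the 9 genes.

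Per kilobase, the order of the members changed with treatment. In WT saline the highest means were those of *Mmp14* (2.19), *Plau* (1.85) and *Mmp7* (0.886). In WT FAEE-SAP they were those of *Mmp7* (19.1), *Timp1* (6.79) and *Mmp14* (3.93), followed by *Mmp3* (2.55), *Mmp9* (1.67), *Plaur* (1.27), *Plau* (0.968) and *Adam8* (0.815). *Timp1* led in cKO FAEE-SAP with a mean of 5.88, and *Mmp7* came next with 4.57. For *Mmp3*, *Mmp7*, *Mmp9*, *Mmp14* and *Plaur* the groups were ordered WT FAEE-SAP, cKO FAEE-SAP, then both saline groups, and only the saline groups overlapped. The FAEE-SAP groups of *Mmp3* nearly touched. For *Timp1* and *Adam8* the FAEE-SAP groups overlapped each other and stood above saline. For *Plau* each group overlapped its neighbor in the order.

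The gene whose pattern over the 8 libraries came closest to a member was sought among 8258 genes with a group mean of at least 1, as the smallest root mean square difference of centered log2 values. For *Mmp7* this was *Serpina3n* (0.43), a secreted protease inhibitor of the acute phase, which with FAEE-SAP was at 99.7 and 139 in WT and at 23.6 and 24.9 in cKO, and then *Slc26a9* (0.43), an anion transporter. For *Mmp3* it was *Hmox1* (0.36), heme oxygenase, and then *Il1r2* (0.39), a decoy receptor of IL-1. For *Timp1* it was *Gm16174* (0.49) and then *Reg2* (0.55), a secreted protein of regenerating acinar cells, which was at 971 and 807 in WT saline and at 6138 and 4739 in WT FAEE-SAP. In cKO, *Reg2* was at 344 and 329 with saline and at 9691 and 11163 with FAEE-SAP, above WT FAEE-SAP, where *Timp1* overlapped between the genotypes. The closest to *Mmp9* were *Sema3f* (0.13) and *Lilrb4a* (0.21), and to *Plaur* they were *Inhbb* (0.18) and *Plscr1* (0.26). *Mmp14* was closest to *Cfl1* and *Sema4a* (0.08 each), *Plau* to *Acyp1* (0.25) and *Ttc39a* (0.27), and *Adam8* to *Thyn1* (0.25) and *Srgn* (0.26). The 8 points share their libraries and scaling factors, and with 8258 genes searched some will lie close, so these names describe a likeness only. *Mmp10* has too few reads for such a search.

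Related proteases and inhibitors were read in the same way. Of 18 other MMP genes, 5 were tested and 1 passed with FAEE-SAP, *Mmp8*, the neutrophil collagenase, which lies beside *Mmp10* in the cluster. It had 0 and 1 reads in WT saline. With FAEE-SAP it was at 0.817 and 0.958 in WT and at 0.113 and 0.432 in cKO, 3.16-fold lower in the fit without passing (adjusted p = 0.176, limma). *Mmp19* had the opposite direction between genotypes with FAEE-SAP, at 1.08 and 0.736 in WT and 2.21 and 2.13 in cKO, a log2 difference of 1.21 (adjusted p = 0.106, limma). Both are named after their values were seen. Of the 6 inhibitors other than *Timp1*, 2 were tested and none passed. *Timp2* was at 6.57 and 8.52 in WT saline and 4.37 and 3.71 in WT FAEE-SAP, with a log2 fold change of -0.89 (adjusted p = 0.0642, limma). *Timp3* was at -0.78 (adjusted p = 0.0655, limma). These directions depend on the scaling. As deposited, *Timp3* was higher with FAEE-SAP in WT, at 5.34 and 5.49 against 3.61 and 3.92 in saline. *Timp2* overlapped as deposited, at 8.84 and 7.17 against 4.78 and 7.38. In the response of cKO, *Timp2* was at -0.19 and *Timp3* at 0.31.

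In the plasminogen system beyond *Plau* and *Plaur*, 11 of 16 genes were tested, and 2 passed as higher and 1 as lower in WT, where 3.86% of all genes passed as lower. *St14*, a membrane serine protease of epithelium that activates urokinase, was at 3.18 and 2.71 in WT saline and at 12.1 and 11.1 in WT FAEE-SAP, a log2 change of 1.94 (SE 0.19, adjusted p = 0.00685, limma). With FAEE-SAP it was at 3.31 and 4.60 in cKO, a log2 fold change of -1.56 against WT (adjusted p = 0.0511, limma) that just missed the threshold. *Vtn*, vitronectin, a matrix protein that binds the urokinase receptor, fell by 2.09 on the log2 scale (SE 0.20, adjusted p = 0.00576, limma), from 14.2 and 13.3 to 3.53 and 2.86. *Plat*, the tissue plasminogen activator, was at 0.605 and 0.663 in WT saline and at 1.07 and 1.66 in WT FAEE-SAP, with a log2 fold change of 0.98 (adjusted p = 0.0927, limma). Plasminogen itself, *Plg*, was at 0 in 6 of the 8 libraries. Its protein is made mainly by the liver.

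Of the 12 other ADAM genes and regulators, 7 were tested and 2 passed as higher in WT. These were *Rhbdf2*, the partner that brings ADAM17 to the cell surface, with a log2 fold change of 2.17 (adjusted p = 0.0264, limma), and *Adam9*, with 1.17 (adjusted p = 0.0299, limma). Of 19 ADAMTS genes, which cleave proteoglycans and other matrix proteins, 7 were tested and 2 passed, *Adamts15* at 1.98 (adjusted p = 0.0246, limma) and *Adamts4*, named after its values were seen. Of 25 matrix substrates, 24 were tested, 3 passed as higher and 1 as lower. *Spp1*, osteopontin, was at 1.79 and *Lama5*, a laminin chain, at 1.25, *Lamb3*, another laminin chain, fell by 1.60 on the log2 scale, and *Vcan*, named after its values were seen, was the other gene that passed. Their adjusted p-values were 0.0197 to 0.0458 (limma) for the 3 named with values. No gene of these 6 lists passed in cKO against WT with FAEE-SAP, in the response of cKO or in the interaction. In the response of cKO, 20 of 22 matrix substrates tested had a log2 fold change above 0, with a median of 0.79 against -0.01 over all genes tested, and none passed.

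**Figure D4:**
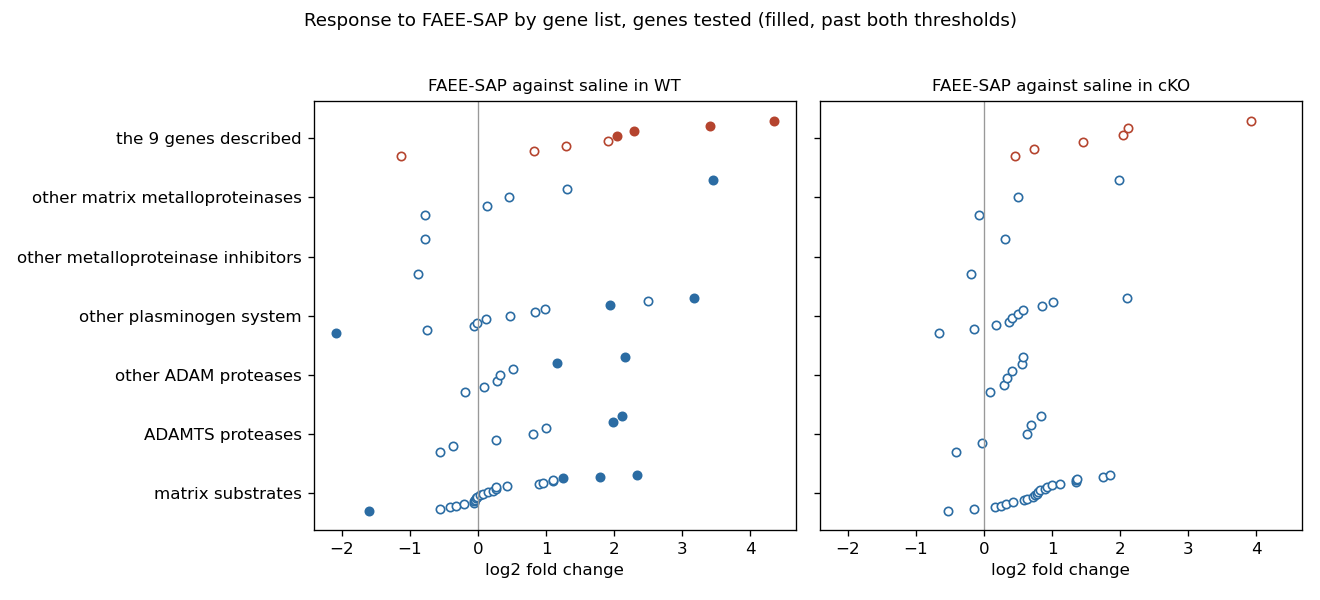
Log2 fold change with FAEE-SAP in WT and in cKO for the 9 genes described and 6 lists of related genes, 1 point per gene tested, filled where it passed. Filled points are in the WT panel only, on both sides of 0 in the plasminogen system and the matrix substrates, and the response of cKO has no filled point in these lists.

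Markers of other cell types moved with treatment and genotype, and their part in the results above was not tested. Of 12 neutrophil markers, 8 were tested and all 8 passed as higher in WT FAEE-SAP, among them *S100a8*, at 0.139 and 0.304 in WT saline and 18.6 and 15.8 in WT FAEE-SAP. With saline alone, 1 of the 12 reached the minimum to be tested. Their summed level was 1.55 to 2.70 in WT saline, 1.60 to 4.03 in cKO saline, 58.9 to 63.3 in WT FAEE-SAP and 13.9 to 20.2 in cKO FAEE-SAP. Most of that sum came from *S100a9*, at 33.1 and 29.2 in WT and at 12.1 and 7.62 in cKO with FAEE-SAP, and from *S100a8*. In cKO against WT with FAEE-SAP, 3 of the 8 passed as lower (*S100a8*, *Retnlg* and *Fpr1*). Of the defining neutrophil markers *Csf3r*, *Cxcr2* and *Ly6g*, 1 was at 0 in all saline libraries, *Ly6g*, and it stayed under 0.1 with FAEE-SAP. *Csf3r* overlapped between the genotypes with FAEE-SAP, at 0.877 and 0.818 in WT and 1.06 and 0.560 in cKO, a log2 fold change of -0.13 (adjusted p = 0.868, limma). For *Cxcr2* it was -0.58 (adjusted p = 0.392, limma). *Mpo*, a neutrophil granule enzyme, had no read in WT and 10 and 16 reads in cKO with FAEE-SAP. *Mmp8* belongs to this list as well as to the MMPs.

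All 10 acinar markers passed as lower with FAEE-SAP in WT, and with FAEE-SAP 7 of 10 passed as higher in cKO than in WT. The size of these differences depends on the scaling. As deposited, *Cpa1* was at 13380 and 13967 in WT saline and at 8579 and 8544 in WT FAEE-SAP. *Ctrb1* overlapped as deposited, at 60215 and 57332 in WT saline and at 59055 and 50322 in WT FAEE-SAP. The defining members *Cpa1*, *Cela1* and *Ptf1a* were present in every library, as fits the tissue named by the labels. Of the ductal markers, 2 of 6 tested passed as higher in WT (*Epcam* and *Spp1*), 3 of the 6 had a log2 fold change below 0, and the median was 0.21. The summed level, to which *Epcam* and *Spp1* contribute most of the difference, was 50.2 to 53.8 in WT saline and 93.3 to 96.4 in WT FAEE-SAP. In cKO it was 38.4 to 58.7 with saline and 76.7 to 81.9 with FAEE-SAP. *Spp1* differed widely between the cKO saline libraries, at 22.0 and 5.06. Of 9 macrophage markers 1 passed as higher in WT, *Cd14*, which also passed as lower in cKO than in WT with FAEE-SAP. In cKO against WT with FAEE-SAP, 7 of the 9 had a log2 fold change above 0, with a median of 0.65, and in WT 5 of the 9 were below 0 with FAEE-SAP. None of the fibroblast and stellate, endothelial, mesothelial or lymphocyte markers tested passed in any comparison. Of the islet markers, 2 of 6 passed as lower in WT and 3 of 6 as higher in cKO than WT with FAEE-SAP, and of the adipocyte markers 1 of 4 passed, *Fabp4*, as higher in WT. The summed level of the fibroblast and stellate markers, cells that make *Mmp14* and *Timp1*, was 61.9 to 73.2 in WT saline and 54.2 to 64.0 in WT FAEE-SAP. In cKO it was 66.2 to 66.8 with saline and 65.3 to 79.6 with FAEE-SAP, where 8 of 9 markers had a log2 fold change above 0 against WT, with a median of 0.67.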

How the data were processed

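RNA-Seq of pancreas was analysed in 8 libraries, 2 per group, grouped by their titles. Per the labels and the study's methods, directional libraries were filtered with fastp and mapped to GRCm38.p6 with CLC Genomics Workbench. The authors deposited RPKM for each gene and library. How RPKM was computed, and whether strand was used in counting, is not given in the sources used here, so reads of overlapping antisense genes cannot be told apart. Symbols were matched to GENCODE vM21 (95.1% of genes). Library totals were worked out from the smallest RPKM, of which 84.5% to 85.8% gave whole reads within 0.1 reads, and reads per gene are approximate.

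Genes with RPKM of at least 0.5 in at least 2 libraries of a comparison entered limma 3.58.1 (R 4.3.3), whose variance prior followed the mean level, on log2(RPKM scaled by the median of ratios + 0.1). This scale shrinks the changes of low genes. Calls needed a Benjamini-Hochberg adjusted p-value under 0.05 over all genes tested and a 2-fold change. Fits used the 4 libraries of a comparison, and all 8 for the interaction. Levels printed per library were scaled over all 8. An exact permutation test of 2 against 2 libraries cannot go below p = 0.33 (two-sided) and was not used. The procedure was also run on simulated data with the depths of the FAEE-SAP libraries, a fixed spread for all genes and no shift in composition. Only genes with a mean of at least 1 were changed there. That simulation therefore does not test the scaling or the calls of low genes in these data.

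The 9 genes, the lists and the tests were chosen with earlier results of these data known. Genes of other lists were named if called with FAEE-SAP in WT or between genotypes with FAEE-SAP and at a mean of at least 1 in the higher group, up to 5 by size, with *Plat* named regardless, and the 2 genes most like each member. A gene of the plasminogen list that the rule names is counted but not reported here. Alternatives were other scalings, filters, pseudocounts and variance models, 1 model over 8 libraries, a replicate block and leaving out each library. Tables were handled in Python 3.11.15 with numpy 2.4.6 and pandas 2.3.3.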

Additional observations from a re-analysis of the deposited data

Results flagged for a closer look

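One result stood out because the groups moved in opposite directions. *Plau* was lower in both WT FAEE-SAP libraries than in both WT saline libraries, and higher in both cKO FAEE-SAP libraries than in both cKO saline libraries. The difference between the genotypes in the log2 response was 1.53 (SE 0.72, adjusted p = 0.441, limma), so the test of the difference itself was not passed. The response in WT changed sign with the RPKM as deposited.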

How the results depend on the processing

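Of the log2 fold changes of single members under all alternatives, 456 kept their direction and their side of the threshold, 33 newly passed, 6 no longer passed and 16 changed sign. Among the 4 members called in WT, *Mmp7* and *Timp1* passed under every alternative in which they were tested.

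Members called in WT numbered 4, against 7 as deposited and 2 without a filter (*Mmp7* and *Timp1*), and 1 to 5 with a library left out. In the response of cKO, 0 members passed, against 1 as deposited, 1 in the model of 8 libraries (*Timp1* both times), 3 with the replicate block (*Timp1* at an adjusted p of 0.00837, *Mmp7* at 0.0251 and *Mmp3* at 0.0333, limma) and 4 by unadjusted p. In cKO against WT with FAEE-SAP, 0 passed, against 7 as deposited, 1 with the replicate block (*Mmp7*, adjusted p = 0.0142, limma), 2 by unadjusted p and 0 to 1 with a library left out. In the interaction, 0 passed, against 1 as deposited, 2 by unadjusted p and 1 with the exchanged block (*Mmp7*). With a library left out, 0 to 0 passed in the interaction, in the saline comparison and in the response of cKO.

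Over all genes, calls in WT numbered 755, against 7270 as deposited, 259 without a filter, 442 with the replicate block, 1349 by unadjusted p and 97 to 491 with a library left out. In the response of cKO they numbered 5, against 15 as deposited, 0 without a filter, 15 in the model of 8 libraries, 52 with the replicate block, 280 by unadjusted p and 0 to 6 with a library left out. In cKO against WT with FAEE-SAP they numbered 140, against 4427 as deposited (73 higher and 4354 lower), 78 with quantile normalization, 0 without a filter, 57 without the trend, 295 in the model of 8 libraries, 568 with the replicate block, 924 by unadjusted p and 0 to 139 with a library left out. With saline they numbered 0, against 2 as deposited, 1 with quantile normalization, 59 by unadjusted p and 0 to 0 with a library left out. In the interaction they numbered 8, against 791 as deposited, 25 with quantile normalization, 0 without a filter, 35 at an RPKM minimum of 2, 24 and 1 at pseudocounts of 1 and 0.01, 3 without the trend, 0 with the replicate block, 782 by unadjusted p and 0 to 4 with a library left out.

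The sign changed in 16 values, none of them a call. As deposited these were *Plau* in WT (0.10), *Mmp7* with saline (-0.12), and *Mmp3* (-0.61), *Timp1* (-0.19) and *Adam8* (-0.46) in the interaction, where *Mmp3* was also -0.037 at a pseudocount of 1. The others changed with a library left out. With saline, *Mmp7* ranged from -0.44 to 0.66 (negative without replicate 2 of WT or of cKO saline) and *Mmp14* from -0.42 to 0.028 (positive without WT saline replicate 2). In the interaction, *Mmp3* ranged from -0.33 to 0.61 (negative without replicate 1 of WT or of cKO saline, or cKO FAEE-SAP replicate 2), *Mmp14* from -0.32 to 0.085 (positive without WT saline replicate 1, cKO saline replicate 2 or cKO FAEE-SAP replicate 2), and *Adam8* from -0.45 to 0.97 (negative without WT saline replicate 2). The cause was not tested.

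Nothing in the labels ties libraries of the same number together. Across 11133 genes, deviations of same-numbered libraries from their group means correlated at -0.52, -0.32 and -0.17 between WT saline and the other groups, and at 0.18, 0.30 and 0.40 among the other 3 groups. The replicate block was therefore kept as an alternative, and in WT it added *Plaur* to the calls (adjusted p = 0.0428, limma). An exchange of the WT saline numbers in the block, chosen after the data were seen, gave 68 calls in the interaction. Depth limits the low members: *Timp1*, *Mmp3*, *Mmp9*, *Plaur* and *Adam8* had 3 to 58 reads in saline libraries, and *Mmp10* could not be measured.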
